A study of Mus musculus with 6 samples.

Results

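The fibronectin gene of the mouse, Fn1, was represented by 12 transcript models among the 62498 RefSeq transcripts quantified in 6 heart libraries. The members were all the transcripts whose Entrez gene number belongs to Fn1 in RefSeq. Of these, 7 carry NM identifiers and 5 carry XM identifiers, the prefix that RefSeq gives to computationally predicted models. All 12 passed the filter on low counts and were tested. The gene lies on the minus strand of chromosome 1 (mm10, chr1:71585473-71653280).

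Fibronectin is a large glycoprotein that cells assemble into fibrils of the extracellular matrix through integrin alpha5beta1 and related receptors. Alternative splicing of its transcript adds or omits extra domain B (EDB), extra domain A (EDA) and a variable segment (V, also called IIICS), whose length depends on the splice acceptor used. Hepatocytes secrete a soluble plasma form that lacks both extra domains, whereas fibroblasts, smooth muscle cells, endothelial cells and macrophages make cellular fibronectin, which may contain them. In healing tissue, including infarcted heart, cellular fibronectin with EDA is a component of the provisional matrix and is known to promote the change of fibroblasts to myofibroblasts.

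The libraries were made from total RNA of hearts in which the left anterior descending coronary artery had been ligated, which causes a myocardial infarct. The 3 controls are labelled WT and are called control 35, control 36 and control 37 after their titles. The 3 libraries labelled as TFEB overexpression, TFEB 34, TFEB 41 and TFEB 43, belong to a study of R26-LSL-TFEB [+/+]; Acta2-cre mice, in which Cre recombinase under the Acta2 promoter, active in smooth muscle and myofibroblasts, switches on a cassette for the lysosomal transcription factor TFEB at the Rosa26 locus. Whether the controls carried Cre or the cassette, the age of the mice, the time after ligation and whether each library came from a separate animal are not stated in the labels, so the p-values refer to the spread among these libraries alone, which may be technical. The labels also describe the material as primary fibroblasts and fibrocytes. Heart muscle genes were abundant in all 6 libraries: the 7 cardiomyocyte markers summed to 50352 to 72913 CPM (counts scaled to library size) in control and to 39982 to 79545 CPM in TFEB overexpression, against 1602 to 3328 CPM and 1234 to 4482 CPM for 6 fibroblast markers. Each library held between 12942480 and 14969287 estimated counts. Tfeb itself averaged 36.5 ± 4.2 CPM over the controls and 43.3 ± 3.4 CPM over the TFEB libraries (SD, n = 3 in either group; log2 fold change 0.25, SE 0.12, edgeR adjusted p = 1.00).

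The exon content of the 7 NM models was read from GENCODE M21 (GRCm38, the assembly of mm10), which pairs each of them with an Ensembl transcript. It has no entry for the 5 XM models, so their segments are unassigned here. The models of known content differ at 3 internal places. EDB is exon 25 of NM_010233 (273 nt, 91 codons, chr1:71613763-71614035) and is found in no other of the 7. EDA (270 nt, 90 codons, chr1:71603660-71603929) is found in 4, namely NM_001276408, NM_001276409, NM_001276412 and NM_010233. The V segment (chr1:71597388-71597747) is whole in the V120 models NM_001276408, NM_001276410 and NM_010233, the longest form. It lacks its first 75 nt in the V95 models NM_001276409 and NM_001276411, and all 360 nt in the V0 models NM_001276412 and NM_001276413. All these segments are coding and keep the reading frame. EDA is known to bind integrins alpha4beta1 and alpha9beta1, and the part of V that V95 lacks encodes the CS1 site, a ligand of alpha4beta1.

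The sequences below are the letters by which the models are told apart, 5′ to 3′ on the transcript strand, from the GENCODE M21 transcripts. In the exon sequences capitals mark the alternative segment and lower case the adjoining bases of the spliced transcript. In the junction sequences, which read across the point where the exon is left out, lower case is the upstream exon and capitals the downstream one.
EDB exon: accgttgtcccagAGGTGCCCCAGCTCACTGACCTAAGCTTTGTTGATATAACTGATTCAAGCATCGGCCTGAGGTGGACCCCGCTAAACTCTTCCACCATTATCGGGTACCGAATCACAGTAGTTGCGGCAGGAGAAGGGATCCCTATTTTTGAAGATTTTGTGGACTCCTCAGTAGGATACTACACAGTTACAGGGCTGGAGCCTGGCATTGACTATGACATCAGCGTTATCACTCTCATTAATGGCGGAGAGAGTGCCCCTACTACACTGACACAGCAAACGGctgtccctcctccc
EDA exon: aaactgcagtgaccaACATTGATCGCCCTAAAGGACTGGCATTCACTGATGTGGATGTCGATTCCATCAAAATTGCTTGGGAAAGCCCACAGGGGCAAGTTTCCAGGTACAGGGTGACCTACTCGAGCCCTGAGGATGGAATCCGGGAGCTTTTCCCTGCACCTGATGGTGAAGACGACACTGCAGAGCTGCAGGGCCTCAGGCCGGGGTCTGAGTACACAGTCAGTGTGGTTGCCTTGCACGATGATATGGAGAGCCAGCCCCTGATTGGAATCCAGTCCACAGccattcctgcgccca
V segment, first part: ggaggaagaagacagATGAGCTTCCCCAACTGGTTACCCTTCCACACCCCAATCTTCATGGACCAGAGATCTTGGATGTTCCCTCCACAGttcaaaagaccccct
V segment, second part: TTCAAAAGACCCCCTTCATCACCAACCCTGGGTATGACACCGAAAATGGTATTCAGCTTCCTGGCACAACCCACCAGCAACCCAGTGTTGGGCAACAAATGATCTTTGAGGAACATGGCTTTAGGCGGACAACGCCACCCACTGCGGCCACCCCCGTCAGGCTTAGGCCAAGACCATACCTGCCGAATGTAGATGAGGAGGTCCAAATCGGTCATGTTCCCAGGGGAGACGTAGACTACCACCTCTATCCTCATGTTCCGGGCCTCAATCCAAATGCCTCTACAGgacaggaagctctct
Junction without EDB: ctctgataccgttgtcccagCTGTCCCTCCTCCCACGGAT
Junction without EDA: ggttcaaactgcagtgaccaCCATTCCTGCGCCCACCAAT

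**Figure D1:**
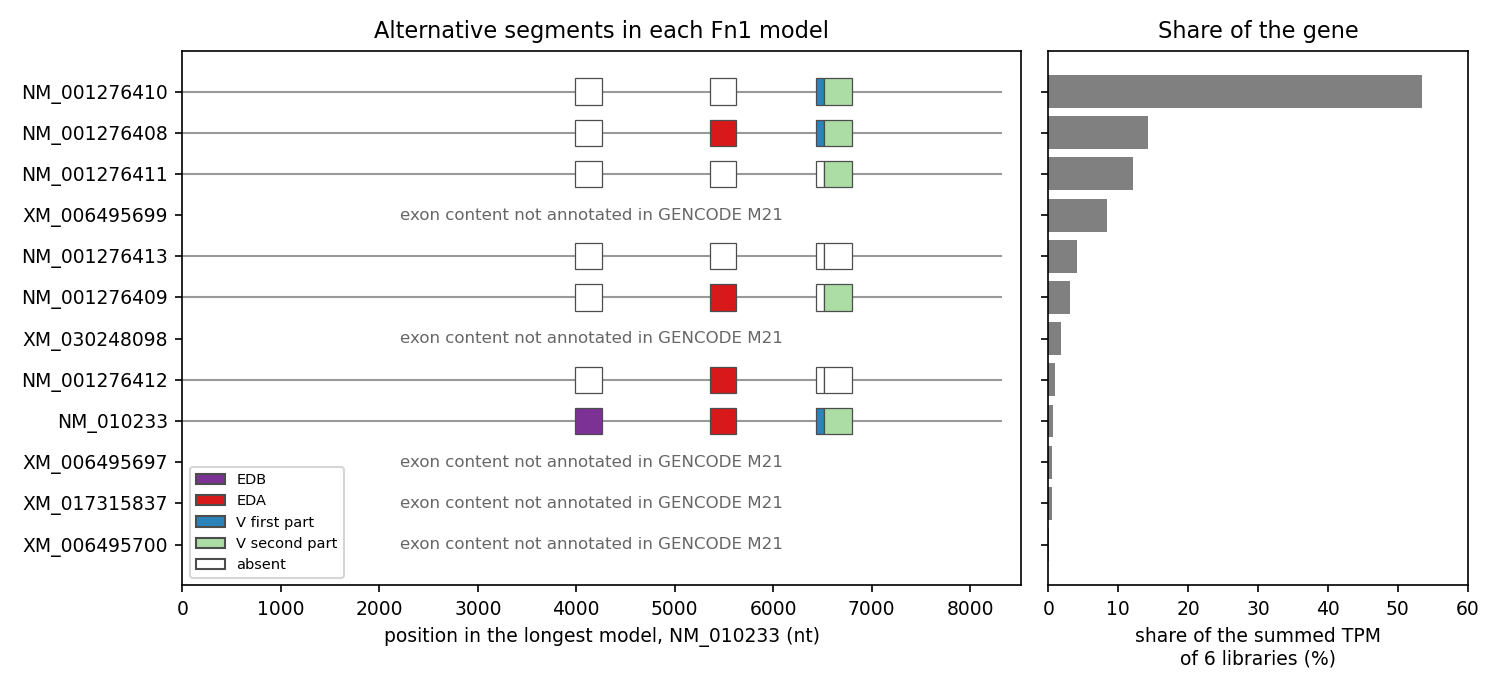
Left, the alternative segments of each Fn1 model at their position in NM_010233, the longest model of known content (8315 nt), with filled boxes for segments present and open boxes for segments absent. Right, the share of each model in the summed TPM of 6 libraries (%), from 53.4% for NM_001276410 to 0.137% for XM_006495700.

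Models that lack both extra domains made up most of the Fn1 signal. TPM, the transcript's part of all transcripts, is scaled for transcript length and depth, so it allows models to be compared. NM_001276410, which has V120 but neither EDB nor EDA, held 53.4% of the TPM summed over the gene and the 6 libraries, with 50068 estimated counts. NM_001276408, which differs from it by EDA, held 14.3% (13862 counts), and NM_001276411, with V95 and no extra domain, held 12.1% (11300 counts). XM_006495699 followed with 8.42%, NM_001276413 (V0, no extra domain) with 4.10%, NM_001276409 (EDA, V95) with 3.12% and XM_030248098 with 1.79%. The other 5 models held less than 1% each: 0.929% for NM_001276412 (EDA, V0), 0.621% for NM_010233 (EDB, EDA, V120), 0.526% for XM_006495697, 0.513% for XM_017315837 and 0.137% for XM_006495700. The sum is weighted towards libraries with much Fn1, and TFEB 34 alone gave 637 of the 1437 TPM. In single libraries the order differed: NM_001276411 was above NM_001276408 in controls 35 and 37, and in control 37 and TFEB 43 NM_001276413 (9.51% and 5.99%) was above XM_006495699 (2.07% and 1.17%). Shares of the summed estimated counts gave nearly the same values, such as 53.0% for NM_001276410. Among the 724 genes with at least 10 models and a mean of at least 10 TPM, the leading model held a median of 37.7%, and 542 had a leading share below that of Fn1. Of these genes 408 have more models than Fn1. Among the 89 others with 12 models the median was 41.5%, and 66 were below Fn1.

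The whole gene spanned a wide range between libraries of the same group. The level of Fn1 in controls 35, 36 and 37 was 721, 1623 and 149 CPM. In TFEB 34, 41 and 43 it was 2728, 1037 and 130.1 CPM. TFEB 34 was highest and TFEB 43 lowest, and the groups overlapped. The same gene summed to 155, 367 and 30.0 TPM in the controls and to 637, 223 and 25.7 TPM in the TFEB libraries, ranks of 827, 402, 3806, 249, 592 and 4239 among 17524 genes. The controls differed among themselves by 10.9 times and the TFEB libraries by 21 times in CPM. The SD of log2(CPM + 1) within groups was 2.01 for Fn1 against a median of 0.20 over the 13565 genes tested, and Fn1 ranked 28 from the top.

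The gene did not pass the test between the groups. The controls averaged 831 ± 743 CPM, and the TFEB libraries averaged 1298 ± 1319 CPM (SD, n = 3 in either group). On the log2 scale the difference was 0.64 (SE 1.15). This is a ratio of 1.56, whose 95% interval spanned 0.231 to 10.6, and edgeR's quasi-likelihood test gave an adjusted p of 1.00. An exact two-sided permutation test of the CPM gave p = 0.70, where 3 against 3 libraries allow no p below 0.10. Of 13565 genes, edgeR called 0 (0%) at an adjusted p under 0.05, 164 had an unadjusted p under 0.05, and DESeq2 called 1. The Fn1 direction rests on TFEB 34: without it the log2 fold change was -0.51, and without control 36 it was 1.58.

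**Figure D2:**
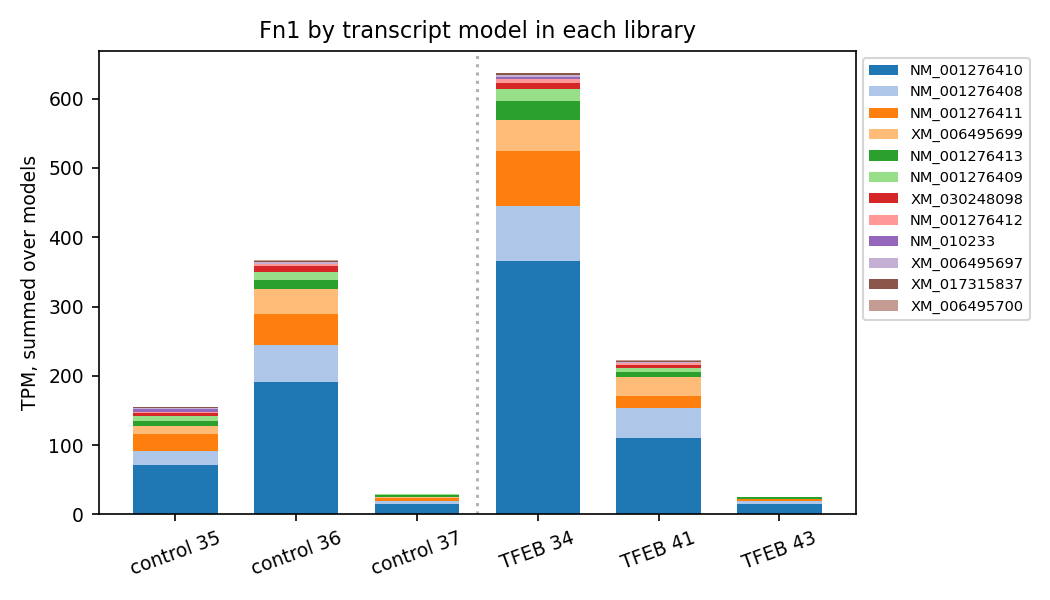
TPM of Fn1 in each library, stacked by transcript model (y axis, TPM summed over models), with 3 controls left of the dotted line and 3 TFEB overexpression libraries right of it. Totals run from 25.7 TPM in TFEB 43 to 637 TPM in TFEB 34, and the groups overlap.

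Fewer cells that make fibronectin and less RNA per such cell cannot be told apart in these bulk libraries. Markers of several cell types moved with Fn1 from library to library, and their part in the result was not tested. The 4 myofibroblast markers, of which 4 had a higher mean in TFEB overexpression, summed in controls 35, 36 and 37 to 621, 1902 and 326 CPM, and in TFEB 34, 41 and 43 to 3756, 1609 and 270.4 CPM, the same order of libraries as Fn1. The 4 macrophage markers, 4 of them with the higher mean in TFEB overexpression, summed to 548, 644 and 349 CPM and to 884, 539 and 290.2 CPM. The 6 fibroblast markers, 2 of them with the higher mean in TFEB overexpression, were lowest in control 37 (1602 CPM) and TFEB 43 (1234 CPM), the libraries with least Fn1. Cardiomyocyte markers, 3 of 7 with the higher mean in TFEB overexpression, were highest there, at 72913 and 79545 CPM. The 4 smooth muscle markers ran from 239 to 283 CPM over the controls and from 272 to 473 CPM over the TFEB libraries, and the 4 endothelial markers from 906 to 1142 and from 968 to 1079 CPM. No marker of these 6 lists was at 0 in any library. Acta2 is in both the myofibroblast and the smooth muscle list. The myofibroblast marker Postn and the fibroblast markers Dcn and Col1a1 are also among the matrix genes described further on. Fap, a myofibroblast marker, is also among the proteases there. Neither Acta2 (highest in TFEB 41, 291 CPM) nor Fap (lowest in control 37, 6.38 CPM) by itself ordered the libraries as Fn1 did. Of the 4 hepatocyte markers, the cells that make plasma fibronectin, 3 were in the table and summed to at most 1.34 CPM, with Apoa1 and Apob at 0 in some libraries. The 4 platelet markers summed to 8.0 to 40.8 CPM over the controls and 9.99 to 13.3 CPM over the TFEB libraries (Gp9 at 0 in some libraries), and the 4 adipocyte markers to 14.4 to 213 CPM and 0.127 to 9.15 CPM (Adipoq and Cidec at 0 in some; the groups did not overlap in 4 of these 4, beside 4.75% of all genes tested).

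None of the 12 models passed the edgeR test between the groups. The 3 leading models were highest in TFEB 34 and lowest in TFEB 43, as the gene was, but NM_010233 was highest in control 35 (3.74 TPM) and XM_006495697 in control 36 (2.49 TPM). In the fit of 33706 transcripts 0 were called (0%), 649 had an unadjusted p under 0.05, and DESeq2 called 186, none of them Fn1 models. NM_001276410 stood at 70.5, 191 and 15.4 TPM in controls 35, 36 and 37 and at 365, 110.3 and 14.9 TPM in TFEB 34, 41 and 43. Between the groups it differed by 0.79 on the log2 scale (SE 1.21, edgeR adjusted p = 1.00), and its groups overlapped, as did those of every other Fn1 model. NM_001276408, its counterpart with EDA, stood at 20.4, 53.5 and 3.95 TPM in control and at 80.6, 43.7 and 3.87 TPM in TFEB overexpression (log2 fold change 0.70, SE 1.18). NM_001276411 stood at 24.8, 45.2 and 4.84 TPM in control and at 78.9, 16.9 and 3.69 TPM in TFEB overexpression (0.37, SE 1.15). In TFEB 41 this V95 model was below its level in control 35, whereas both V120 models above were higher there than in control 35. XM_006495699 stood at 12.4, 35 and 0.62 TPM in control and at 44.8, 27.9 and 0.30 TPM in TFEB overexpression (0.59, SE 1.65).

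The remaining 8 models had log2 fold changes from -0.04 (XM_006495697) to 0.59 (NM_001276413). Over the 12 models the median was 0.36, beside 0.00302 over all transcripts tested, and 11 were above 0, where 50.4% of all transcripts tested were. The models share the libraries and most of their sequence, so they are not independent of each other. Of the Fn1 models, 0 had groups that did not overlap in CPM, beside 7.41% of all transcripts tested. The V0 models stood at 7.0, 13.2 and 2.85 TPM in control and 28, 6.29 and 1.54 TPM in TFEB overexpression for NM_001276413, and at no more than 5.22 TPM for NM_001276412. Without TFEB 34 all 12 models were below 0, from -1.22 (NM_001276411) to -0.082 (NM_001276408), with NM_001276410 at -0.51.

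**Figure D3:**
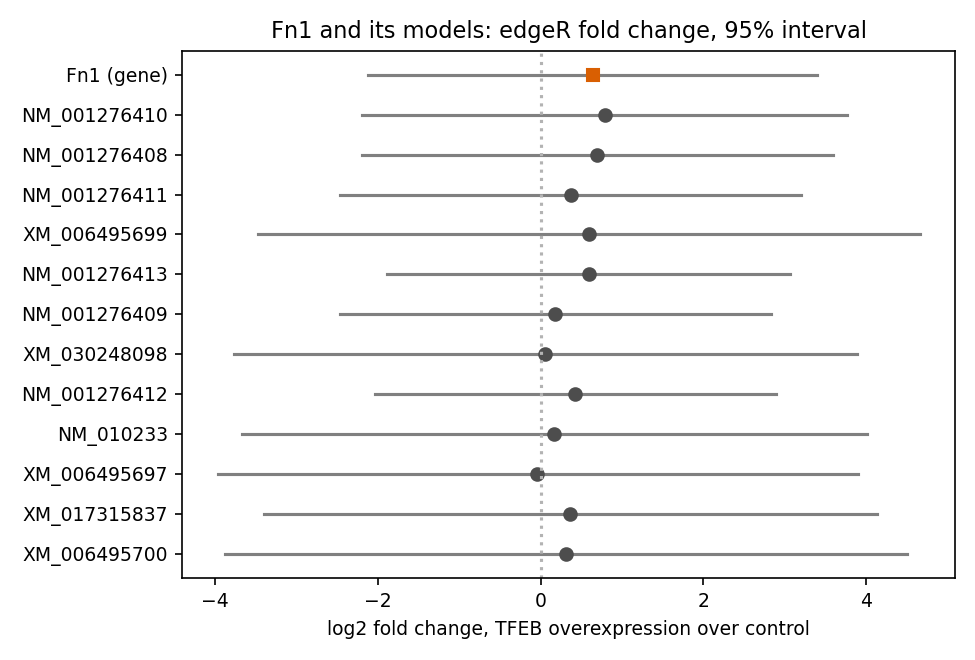
Log2 fold change of TFEB overexpression over control (x axis) for Fn1 as a gene (square) and for each of its 12 transcript models (circles), from edgeR with 3 libraries per group. Lines are 95% intervals. All of them include 0, and the one for the gene runs from -2.12 to 3.40.

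The shares of the 3 leading models varied less between libraries than the level of the gene, whereas those of some minor models varied as widely or more in relative terms. NM_001276410 made up 45.6%, 52.1% and 51.4% of the Fn1 TPM in controls 35, 36 and 37 and 57.3%, 49.6% and 57.9% in TFEB 34, 41 and 43. The means were 49.7 ± 3.60% and 54.9 ± 4.63% (SD, n = 3 each), a difference of 5.23 percentage points (exact permutation test, two-sided, p = 0.30, adjusted over 12 models 0.80). Its SD over the 6 libraries was 4.69 points, where the leading models of the 724 genes above had a median of 5.35. NM_001276408 made up 13.2%, 14.6% and 13.2% in control and 12.6%, 19.6% and 15.1% in TFEB overexpression. Its highest share was in TFEB 41, and the groups overlapped (difference 2.13 points, exact permutation p = 0.60, adjusted 0.80). Without TFEB 41 the difference was 0.196 points, and without TFEB 34 it was 3.69. NM_001276411 made up 16%, 12.3% and 16.1% in control and 12.4%, 7.62% and 14.4% in TFEB overexpression, lowest in TFEB 41 (difference -3.37 points, exact permutation p = 0.30, adjusted 0.80). Without TFEB 41 the difference was -1.46 points. The difference of NM_001276410 ran from 3.16 points without control 35 to 7.89 without TFEB 41.

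NM_001276409, the V95 model with EDA, had the smallest p of the 12 shares. It made up 4.56%, 3.41% and 4.17% in control and 2.61%, 2.89% and 3.66% in TFEB overexpression, a difference of -0.992 points (exact permutation p = 0.20, adjusted 0.80). Of the 12 models 0 had groups that did not overlap in share, beside 8.89% of the 30071 tested transcripts of genes with at least 2 models. The EDB model NM_010233 held 2.42% in control 35 but 0.0491% in control 36 and 0.534% in control 37, and from 0.389% to 0.570% in the TFEB libraries. Its estimated count was 276 in control 35 and 11.8 in control 36, although control 36 had more Fn1. The edgeR test of transcript usage, which asks whether a model's change differs from that of its gene, gave Fn1 an adjusted p of 1.00, with changes relative to the gene from -0.69 to 0.14 (log2). It called 41 of 7632 genes (0.537%) and 8 of 28087 transcripts (0.0285%), none of them from Fn1. That test measures each model's departure against the spread of its own level over the libraries, which for Fn1 includes the spread of the whole gene.

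**Figure D4:**
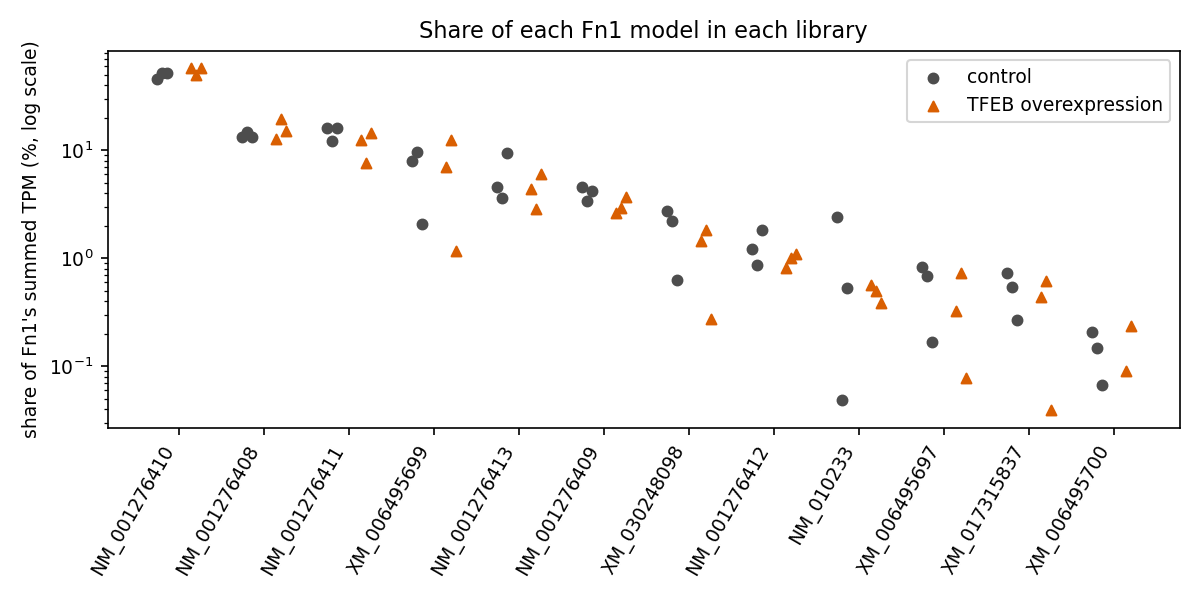
Share of each Fn1 model in the gene's summed TPM (y axis, %, log scale) in 3 control libraries (circles) and 3 TFEB overexpression libraries (triangles), with models in order of their summed TPM. The groups overlap in every model, and XM_006495700, listed at 0 in TFEB 43, is not drawn there.

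The XM models as a group had their lowest shares where Fn1 was lowest. Together they made up 12.5%, 13.1% and 3.20% of the Fn1 TPM in controls 35, 36 and 37 and 9.32%, 15.9% and 1.56% in TFEB 34, 41 and 43. Control 37 and TFEB 43 stood below the other 4 libraries, in either group, and XM_006495699 alone went from 7.03% to 12.5% in those 4 to 2.07% and 1.17% in these. In counts, XM_006495699 had 41.2 in control 37 and 19.2 in TFEB 43, against 884 to 3106 in the others. The NM model with the nearest length, NM_001276408, held 13.2% and 15.1% there, within its range in the other libraries. Because the 6 libraries fall into separate clusters of high and low Fn1, no correlation of share with level was computed. The groups did not differ beyond their spread (9.61 ± 5.55% in control and 8.94 ± 7.20% in TFEB overexpression, SD, n = 3 each, exact permutation p = 0.90).

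The lengths of the XM models could be derived from the ratio of count to TPM, which is proportional to the length available to fragments. With the scale fitted to the NM models of known length, library by library in the 4 libraries where enough of them were expressed, the library with the least rounding error gave 8051 nt for XM_006495699, 7976 nt for XM_030248098, 8233 nt for XM_006495697 and 7674 nt for XM_017315837. For the 7 NM models, to which the scale was fitted, the derived lengths lay between 23 nt below and 9 nt above the annotated ones. The nearest annotated lengths were 8043 nt (NM_001276408), 7965 nt (NM_001276409), 8315 nt (NM_010233) and 7680 nt (NM_001276412), but a similar length does not show which segments a model holds. EDB (273 nt) and EDA (270 nt) are nearly equal in length. With the same V form, a model with EDB alone and one with EDA alone would therefore be of similar length. The NM models without EDB already cover each V form with and without EDA. The derived length of XM_006495699 was above that of NM_001276408 in each of the 4 libraries. It was 8048.3 against 8044.1 nt in control 35 and 8048.3 against 8046.4 nt in control 36. In TFEB 34 it was 8050.9 against 8047.7 nt, and in TFEB 41 8047.7 against 8045.7 nt. The rounding errors of these values ran from 0.5 to 3.2 nt. Whether the XM models hold EDB was not tested. XM_006495700 was too low for an estimate.

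EDA-containing models accounted for a minority of the Fn1 signal in every library. Among the 7 models of known content the EDA share was 24.5%, 21.8% and 20.4% in controls 35, 36 and 37 and 18.4%, 28.6% and 20.5% in TFEB 34, 41 and 43. TFEB 34 had the lowest value and TFEB 41 the highest, on either side of all 3 controls. The means were 22.2 ± 2.08% and 22.5 ± 5.40% (SD, n = 3 each), a difference of 0.292 points (exact permutation p = 0.90, also 0.90 when adjusted over the 6 segment measures compared). The unassigned models widen this: over all 12 models the EDA share lay between 21.4% and 33.9% in control 35, 18.9% and 32% in control 36, 19.7% and 22.9% in control 37, 16.6% and 26.0% in TFEB 34, 24.0% and 40.0% in TFEB 41, and 20.2% and 21.7% in TFEB 43, depending on whether none or all of the XM models contain EDA. The segment measures were chosen after the values of the models had been seen.

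Within a library the EDA share was similar whichever form of V was considered. Among models without EDB, the V120 pair gave 22.4%, 21.9% and 20.4% in control and 18.1%, 28.4% and 20.6% in TFEB overexpression. The V95 pair gave 22.2%, 21.7% and 20.5% in control and 17.4%, 27.5% and 20.3% in TFEB overexpression. The V0 pair gave 21.3%, 19.3% and 16.2% in control and 15.7%, 26.3% and 15.4% in TFEB overexpression, the lowest of the 3 forms in every library. EDA and V are 813 nt apart in the transcript, and EDB and EDA are 1095 nt apart, so a fragment shorter than these distances does not show which V form an EDA read came from. The length fits above put a model's length at 74.0 to 198.6 nt more than the length available to fragments, below both distances. Similar EDA shares across V forms therefore do not show how EDA and V are combined in single transcripts. The division of reads among such combinations was made by the authors' quantification, whose uncertainty was not used here.

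**Figure D5:**
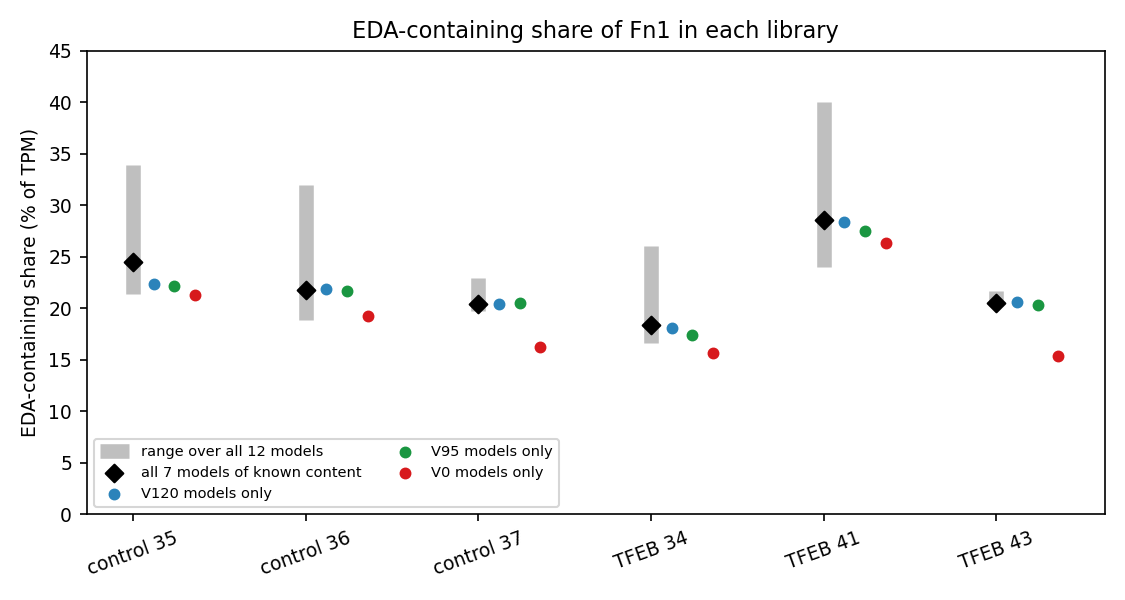
EDA-containing share of Fn1 (y axis, % of TPM) in each library among the 7 models of known content (diamonds), among the V120, V95 and V0 models without EDB (coloured circles), and its range over all 12 models when none or all of the unassigned models contain EDA (grey bars). The diamonds run from 18.4% in TFEB 34 to 28.6% in TFEB 41.

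EDB was a minor part of the models of known content, of which NM_010233 is the only one that holds it. The unassigned models leave its share of the gene loosely bounded, and whether they hold EDB was not tested. NM_010233 made up 2.76%, 0.0565% and 0.551% of them in controls 35, 36 and 37 and 0.628%, 0.593% and 0.395% in TFEB 34, 41 and 43. Means were 1.12 ± 1.44% and 0.539 ± 0.126% (SD, n = 3 each, exact permutation p = 0.90). If all XM models contained EDB, its share of the gene would be at most 14.9%, 13.1% and 3.74% in the controls and 9.89%, 16.4% and 1.94% in the TFEB libraries.

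V120 was the prevailing form of the variable segment in every library. It made up 69.9%, 76.8% and 67.3% of the models of known content in control and 77.7%, 82.9% and 74.5% in TFEB overexpression. The highest control lay above the lowest TFEB library, so the groups overlapped. Means were 71.3 ± 4.90% and 78.4 ± 4.25%, a difference of 7.06 points (SD, n = 3 each, exact permutation p = 0.20, adjusted 0.60). V95 made up 23.5%, 18.1% and 21% in control and 16.5%, 12.5% and 18.3% in TFEB overexpression, a difference of -5.09 points (exact permutation p = 0.20, adjusted 0.60). Over all 12 models V120 made up at least 61.2%, 66.7% and 65.1% in controls 35, 36 and 37 and 70.5%, 69.7% and 73.4% in TFEB 34, 41 and 43, if no XM model is V120, and at most 73.7%, 79.8% and 68.3% against 79.8%, 85.7% and 74.9% if all are. The groups did not overlap at the lower bound and overlapped at the upper one, and no test was made of either. For scale, groups did not overlap in share for 8.89% of the tested transcripts of genes with at least 2 models. The bounds of V95 ran from 15.7% to 33.1% over the controls and from 10.5% to 26.4% over the TFEB libraries, and those of V0 from 4.46% to 18.3% and from 3.83% to 19.8%. V0 made up 6.58%, 5.13% and 11.7% in control and 5.76%, 4.56% and 7.19% in TFEB overexpression (difference -1.97 points, exact permutation p = 0.60, adjusted 0.90). Without control 37 that difference was -0.0179 points.

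The genes whose pattern over the 6 libraries was most like that of Fn1 included collagens and genes of immune cells. By Pearson correlation of log2(CPM + 1) among the 10912 genes that averaged 5 CPM or more, the 8 closest were the collagen VI gene Col6a1 (r = 0.9994), the Fc gamma receptor gene Fcgr2b (0.997), Cemip, which acts in hyaluronan breakdown (0.9965), the cationic amino acid transporter gene Slc7a2 (0.9961), the GTPase gene Rab32 (0.9959), the monocyte chemokine receptor gene Ccr2 (0.9959), the collagen I gene Col1a2 (0.9955) and the GTPase gene Rab7b (0.9947). All 8 ordered the libraries as Fn1 did (Spearman's rho 1.00, n = 6). These values describe 6 libraries that fall into high and low clusters, and 1105 genes had an r above 0.9. In controls 35, 36 and 37 the level of Col6a1 was 306, 398 and 191 CPM, and in TFEB 34, 41 and 43 it was 474, 345 and 175 CPM, a much narrower range than Fn1. Their log2 fold changes between the groups ran from 0.08 (Rab7b, SE 0.44) to 1.04 (Cemip, SE 1.65). They were 0.15 for Col6a1 (SE 0.41) and Fcgr2b (SE 0.37), 0.35 for Slc7a2 (SE 0.70), 0.28 for Rab32 (SE 0.50), 0.10 for Ccr2 (SE 0.50) and 0.55 for Col1a2 (SE 0.97).

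Of the matrix proteins that bind fibronectin and their regulators, 0 of 19 passed the test in either direction, and 16 had a value above 0 (median log2 fold change 0.36), where 51% of all genes tested did and their median was 0.00299. This direction rests on TFEB 34, the library with most Fn1: without it 2 of the 19 were above 0 (median -0.29), beside 48.1% of all genes, and without control 37 there were 10 (median 0.08). On the TPM scale Fn1 ranked between 7 and 16 of 20 within this list and itself, with 16 in control 37 and TFEB 43. Col1a1 stood at 0.69 (SE 0.98) and Thbs1, thrombospondin-1, at 0.91 (SE 1.12). The members with the smallest p were the proteoglycan genes Dcn (-0.34, SE 0.23) and Hspg2 (0.20, SE 0.21), Ccn1 (0.53, SE 0.51) and Col5a1 (0.61, SE 0.69).

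Of 17 fibronectin receptor genes, 0 passed in either direction, and 12 had a value above 0 (median 0.13). Without TFEB 34 there were 4 (median -0.14). The subunits of the main assembly receptor, Itga5 (0.11, SE 0.25) and Itgb1 (0.11, SE 0.20), and those of the RGD-binding alphav and beta3 integrins, Itgav (-0.07, SE 0.37) and Itgb3 (-0.34, SE 0.41), did not differ beyond their spread. Itga2b, the platelet subunit, stood at -2.21 (SE 0.68), Sdc3 at 0.44 (SE 0.30), Itga3 at -0.15 (SE 0.12) and Sdc4, a heparan sulfate co-receptor, at 0.22 (SE 0.18). Of 16 genes that link fibronectin receptors to actin or transmit force, 0 passed, and 12 had a value above 0 (median 0.07), among them Ilk (0.13, SE 0.12), Tln1 (0.17, SE 0.16) and Flna (0.26, SE 0.26), with Rock2 at -0.11 (SE 0.11).

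Of 18 splicing factors of families that regulate Fn1 exons, 17 were tested (Esrp1 was not) and 0 passed, with 10 above 0 (median 0.03). The SR proteins Srsf1 and Srsf5 and the RBFOX protein Rbfox2, known from work on EDA and EDB, stood at 0.01 (SE 0.12), 0.05 (SE 0.12) and -0.04 (SE 0.10). Srsf2 stood at 0.20 (SE 0.12), Srsf3 at -0.21 (SE 0.15), Ptbp1 at 0.22 (SE 0.18) and Rbfox1 at -0.43 (SE 0.45). Of 14 genes that induce Fn1 transcription, 0 passed and 6 were above 0 (median -0.04). With 1 library left out, the number above 0 ran from 2 without TFEB 34 (median -0.13) to 9 without control 35 (median 0.03). It was 8 without control 36, TFEB 41 or TFEB 43, and 5 without control 37. Tgfb1 stood at 0.18 (SE 0.24), Yap1 at -0.18 (SE 0.09), Creb1 at -0.16 (SE 0.10), Srf at 0.18 (SE 0.11) and Smad2 at -0.09 (SE 0.09). The groups did not overlap in 1 gene of this list, Yap1, nor in 1 gene of the splicing list, Hnrnpk (chosen here after its values were seen), beside 4.75% of all genes tested. Of 11 proteases that cleave fibronectin and their inhibitors, 10 were tested (Plg was not), 0 passed and 7 were above 0 (median 0.11), or 4 without control 37 (median -0.07), with Mmp14 at 0.53 (SE 0.63), Mmp3 at -0.68 (SE 0.35), Fap at 0.53 (SE 0.34) and Plau at 0.63 (SE 0.47). Without TFEB 34 Mmp14 stood at 0.048, and Fap and Plau at 0.25. Acta2, the source of the Cre promoter, stood at 0.98 (SE 0.22, edgeR adjusted p = 1.00), and its CPM was 106, 100.3 and 137 in controls 35, 36 and 37, below the 214, 291 and 174 of TFEB 34, 41 and 43.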

How the data were processed

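RNA sequencing of 6 mouse heart libraries, 3 control and 3 TFEB overexpression, was used as deposited. Per the submitters' processing notes, which give no role for each tool, the tools were RSEM 1.3.1, HISAT2 2.1.0, DESeq2 1.4.5 and Bowtie2 2.3.4.3, and the build was mm10. Per the file headers, the authors deposited an estimated count, a TPM and an FPKM value per RefSeq transcript and library. The estimated counts carry the library's depth. As deposited, TPM values are relative to transcript length and to one sum per library, and the FPKM values they deposited are scaled for length and depth. In all, 6 empty columns of normalised counts were not used. The sources used here do not state the strand setting or the annotation release. An antisense gene, Apol7d, overlaps 364 nt at the 5′ end of Fn1 as spanned by its GENCODE M21 models, and more of the longer RefSeq span. Apol7d was not analysed here, so reads on the opposite strand cannot be told apart there.

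Estimated counts, per transcript or summed per gene (17524 genes), were rounded to whole numbers and fitted with the two-sided quasi-likelihood test of edgeR 4.0.16 (R 4.3.3), with TMM scaling and the filterByExpr filter, over 13565 genes or 33706 transcripts, with Benjamini-Hochberg adjustment and a threshold of 0.05. CPM uses TMM-scaled totals, and fold changes are TFEB overexpression over control. Usage was tested with diffSpliceDGE of edgeR. Shares were taken from TPM and compared by exact permutation. Alternatives were RLE and upper-quartile scaling, DESeq2 1.42.0, limma 3.58.1 (voom, and trend on log2 of TPM or FPKM), other filters, shares of counts or FPKM, shares among models of at least 1% only, and each library left out. The tests were tried on simulated data. There edgeR recovered 27% of 2-fold and 85% of 4-fold gene changes, with 9 false calls. Of transcript changes it recovered 14% at 4-fold and 42% at 16-fold, with 5 false calls. The usage test recovered 83 of 137 genes whose 2 leading transcripts, over 2-fold apart, were swapped, with 32 false calls. The changed genes and transcripts were drawn at random from those tested. These rates therefore cannot be read as rates for Fn1, whose SD within groups was 2.01 against a median of 0.20. In the usage simulation each transcript was drawn independently, without a swing shared by the whole gene. Besides Fn1, Tfeb and Acta2, the genes named were up to 4 per list by smallest p, a fixed panel and the 8 genes most like Fn1. One listed gene is not reported here and was left out of its list's counts. Genes whose symbol is a predicted one were left out of the likeness search. The members and lists were chosen with earlier results of these data known. Symbols came from the RefSeq gene table (GRCm38.p6) by Entrez number, and 117 genes without one were kept in the fits. Figures were drawn with matplotlib 3.10.9.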

Additional observations from a re-analysis of the deposited data

How the results depend on the processing

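No paired analysis was possible because the replicate numbers 35, 36 and 37 and 34, 41 and 43 are not shared between the groups. Over 79 results, 550 of 570 values under other settings kept their direction and their side of the threshold, and 14 changed sign. The log2 fold change of NM_001276411 became -0.032 with limma-voom, -0.016 on log2(TPM + 1), -0.012 on log2(FPKM + 1) and -0.041 on log2(TPM + 0.1). That of XM_030248098 became -0.32, -0.017, -0.0059 and -0.22 under the same settings, and that of NM_001276409 became -0.032 on log2(TPM + 0.1). XM_006495697 became 0.00014 on log2(TPM + 1) and 0.0018 on log2(FPKM + 1). With limma-voom XM_017315837 became -0.098, XM_006495700 became -0.14 and Cemip became -0.17. DESeq2 called 1 gene and 186 transcripts, and limma on log2(TPM + 1) and on log2(FPKM + 1) called 1 transcript each, where edgeR called 0. Usage calls were 13 genes with no filter and 0 with limma diffSplice, against 41. The cause was not tested. With each library left out in turn, 64 of 474 values changed sign, in 40 results, and usage calls ran from 31 to 62, with 62 without TFEB 34. The ranges of those results were, for log2 fold changes, Ccn1 (-0.051 to 1.03), Ccr2 (-0.28 to 0.47), Cemip (-0.98 to 2.66), Col1a1 (-0.035 to 1.22), Col1a2 (-0.29 to 1.16), Col5a1 (-0.034 to 1.06), Col6a1 (-0.2 to 0.46), Fcgr2b (-0.18 to 0.42), Itga5 (-0.12 to 0.32), Itgav (-0.42 to 0.2), Itgb1 (-0.07 to 0.24), NM_001276408 (-0.082 to 1.73), NM_001276409 (-0.87 to 0.86), NM_001276410 (-0.51 to 1.83), NM_001276411 (-1.22 to 1.07), NM_001276412 (-0.53 to 0.98), NM_001276413 (-0.93 to 1.17), NM_010233 (-1.16 to 3.15), Rab32 (-0.14 to 0.63), Rab7b (-0.32 to 0.4), Rbfox2 (-0.088 to 0.0082), Slc7a2 (-0.22 to 0.79), Srsf1 (-0.029 to 0.096), Srsf5 (-0.028 to 0.12), Tgfb1 (-0.05 to 0.37), Thbs1 (-0.29 to 2.12), XM_006495697 (-0.6 to 0.85), XM_006495699 (-0.14 to 1.83), XM_006495700 (-0.24 to 1.02), XM_017315837 (-0.58 to 1.12), XM_030248098 (-0.98 to 0.91). The Fn1 gene ran from -0.51 to 1.58. In percentage points, shares of the gene ran as follows: NM_001276413 (-2.61 to 0.344), NM_010233 (-0.99 to 0.194), XM_006495699 (-2.44 to 3.25), XM_006495700 (-0.0955 to 0.0213), XM_017315837 (-0.273 to 0.0152). Segment shares, an alternative added after seeing the data, ran as follows: EDA-containing, percent of assigned (-2.76 to 2.36), EDB-containing, percent of assigned (-1.12 to 0.235), unassigned models, percent of all (-4.17 to 3.02). Other values kept their sign but moved by over 1.5 times with 1 library left out. These were the log2 fold changes of Dcn (-0.49 to -0.18), Fap (0.25 to 0.87), Flna (0.058 to 0.49), Hspg2 (0.053 to 0.36), Ilk (0.041 to 0.21), Itga3 (-0.25 to -0.076), Itgb3 (-0.87 to -0.012), Mmp14 (0.048 to 0.96), Plau (0.25 to 1.09), Ptbp1 (0.068 to 0.36), Rbfox1 (-0.98 to -0.16), Rock2 (-0.19 to -0.026), Sdc3 (0.1 to 0.69), Sdc4 (0.081 to 0.38), Smad2 (-0.14 to -0.048), Srsf3 (-0.32 to -0.11), Tln1 (0.044 to 0.27), the gene shares in points of NM_001276408 (0.196 to 3.69), NM_001276410 (3.16 to 7.89), NM_001276411 (-4.83 to -1.46), NM_001276412 (-0.56 to -0.0731), XM_006495697 (-0.369 to -0.023), XM_030248098 (-1.3 to -0.237), and the segment shares in points of V0 (-3.31 to -0.0179). Counts above 0 ran from 10 to 13 of 16 in the adhesion list and from 7 to 13 of 17 in the splicing list, an alternative added after seeing the data. The estimated counts of the minor models limit their shares, such as 0.24 counts of XM_006495700 in TFEB 43.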
